A study of Mus musculus with 4 samples.

Results

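Broad Ring1b domains are stretches of the mouse embryonic stem (ES) cell genome over which calls of Ring1b enrichment followed each other for more than 10 kb. They were chosen from the Ring1b reads alone. A 1-kb window, taken every 500 bp, was called where its distinct reads reached a Poisson p of 1e-09 or less and at least 5 times the background, overlapping called windows (0.625% of covered windows were called) formed regions, and regions 10 kb apart or less were joined into domains. The 423 domains over 10 kb that lay outside the intervals of the 4 Hox clusters are described here, out of 9101 joined Ring1b domains in all; 8670 were 10 kb or shorter and lay outside those intervals, 6 were over 10 kb inside them, and the other 2 were shorter ones inside them. Ring1b widths, read densities and calls therefore describe how the domains were chosen, and no test was made on them.

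Ring1b is a ubiquitin ligase subunit of Polycomb repressive complex 1, which attaches ubiquitin to histone H2A. In ES cells Polycomb proteins are known to occupy CpG-rich promoters of developmental regulators that are held silent, and over the Hox clusters and other loci their occupancy spreads well beyond the promoter. REST is a zinc finger repressor that binds its own DNA element near neuronal genes, MCAF1 is a cofactor of the methyl-CpG binding protein MBD1 and of the histone methyltransferase SETDB1, and H4K20me3, the trimethylated form of a lysine in the tail of histone H4, is known as a mark of pericentromeric and repeat heterochromatin.

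Chromatin of V6.5 ES cells, of mixed C57BL/6-129 background, was precipitated with antibodies against Ring1b, REST, MCAF1 or H4K20me3 and sequenced, 1 library for each antibody and none from an input or a control antibody used here. The cells had been kept on irradiated mouse embryonic fibroblasts and were then grown without them on gelatin, for 1 passage before the REST experiment and 2 passages before the others. The Ring1b library held 3083311 distinct reads with 1 location in the nuclear chromosomes, the REST library 3129369, the MCAF1 library 11023569 and the H4K20me3 library 7782972. With no replicate, antibody and sequencing run cannot be told apart, no difference could be tested, and every interval given (95%) covers counting error only.

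Read density below is the number of distinct reads per covered base over the library's mean density in windows with any read, so that 1 is the genome mean. Because the smaller libraries needed 14 reads in a window for a call (10.4 times the mean for Ring1b, 10.3 times for REST), against 24 reads for MCAF1 (5.01 times) and 20 for H4K20me3 (5.91 times), region counts of different antibodies are not on 1 scale.

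A few of the domains stood apart before any comparison, since 14 of the 423 overlapped a region that was called in all 4 libraries. The widest of all 423, 60 kb on chromosome 11 (3035001–3095000, mm8 here and throughout), had 26 times the genome mean of Ring1b, 26.2 times of REST, 32.7 times of MCAF1 and 42 times of H4K20me3. A domain of 39.5 kb on chromosome 9 (2999501–3039000) had Ring1b at 21.6 times and REST at 21.7 times, and 1 of 17.5 kb on chromosome X (165325001–165342500) had Ring1b at 9.33 times and H4K20me3 at 25.9 times. In these 3 places the signal was not particular to Ring1b, and results on the other libraries are given with and without the 14 domains.

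The 423 domains covered 6.874 Mb, which was 0.291% of the covered sequence, and held 217637 reads, 7.06% of the distinct Ring1b reads (7.03 to 7.09). Their median width was 14 kb (quartiles 12 and 18 kb, range 10.5 to 60 kb), with 76 domains over 20 kb and 16 over 30 kb. The 6 Hox domains were 33 to 126.5 kb wide. Just inside the width limit, 28 domains of 10.5 kb had a median Ring1b density of 7.71 times the mean and a median called share of 42.9%. Just outside it, 47 joined domains of 10 kb had 6.12 times and 35.0%.

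The name broad fitted a minority of the members. The called share of a domain, the part of its length inside called Ring1b regions, was 52.5% over all 423 and had a median of 38.7% (range 16.7% to 100%). Only 29 domains were 1 unbroken region, 207 joined 2 regions, 114 joined 3 and 73 joined 4 or more. In 216 domains (51.1%) the widest region was 3 kb or less, in 266 a gap of more than 5 kb lay between calls, and only 72 (17.0%) contained a region over 10 kb. By called share, a grouping made after the values were seen, 102 domains were called over at most 25% of their length, 152 over 25 to 50%, 60 over 50 to 75% and 109 over more than 75%. In the lowest class the widest region of a domain had a median of 1.5 kb and reached 3 kb, and in the 25 to 50% class it had a median of 2.5 kb and reached 8 kb. In the highest class it had a median of 11 kb (range 3 to 26 kb), and the widest gap had a median of 1 kb and reached 6 kb, with up to 8 regions joined.

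Ring1b density followed the same division. The lowest of the 423 had 2.79 times the genome mean, the median was 9.81 and the highest 101, and 213 lay under 10 times while 121 lay over 30 times. On a logarithmic scale the counts had 2 maxima: 77 domains lay between 5.66 and 8 times, 24 between 16 and 22.6 times, and 44 between 32 and 45.3 times. Summed over a class, Ring1b density was 4.64 times the mean (4.54 to 4.73) where at most 25% was called, 10.1 times in the 25 to 50% class, 29.0 times in the 50 to 75% class and 52.1 times (51.8 to 52.3) above 75%. The last value was close to the 50.4 times (49.9 to 51.0) of the Hox domains, in which 55.3% to 77.8% of the length was called. Called share and density both come from the reads that chose the domains, so that their relation is a description.

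**Figure D1:**
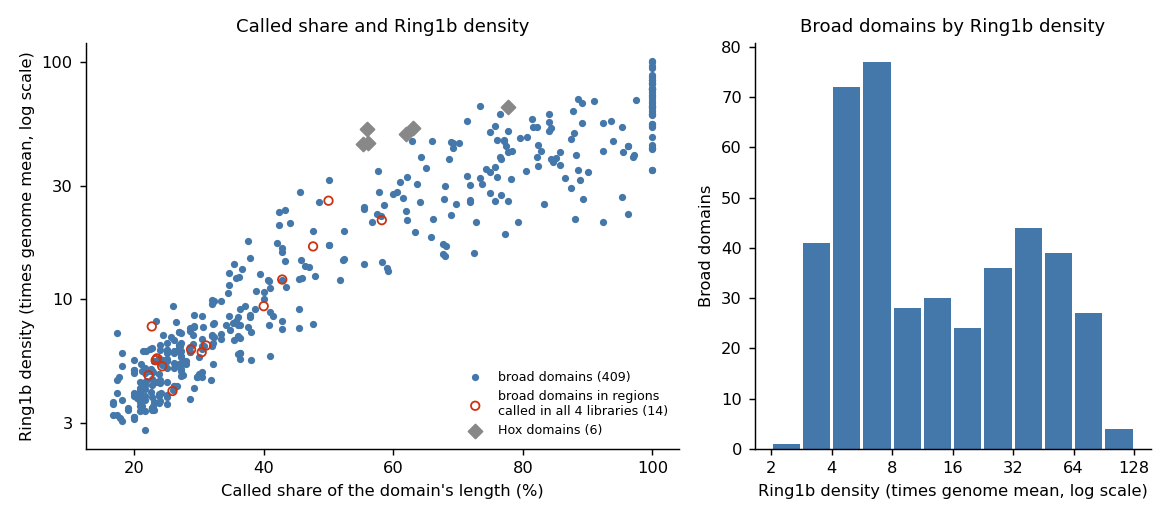
Left, the called share of each domain's length (x, percent) against its Ring1b density (y, times the genome mean, log scale) for 409 broad domains, the 14 that overlap a region called in all 4 libraries and the 6 Hox domains; right, the number of broad domains per bin of Ring1b density (log scale). Domains called over at most 25% of their length lie between 2.79 and 8.10 times the mean, those called over more than 75% between 18.8 and 101 times, and the bar counts dip between 8 and 22.6 times.

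The densest domains were called over their whole length. A domain of 17 kb on chromosome 11 (21892001–21909000) held 2308 Ring1b reads, 101 times the genome mean (97.2 to 105), and was called over 100% of its length. It held 63 REST reads (2.72 times the mean), 163 MCAF1 reads (2.0 times) and 260 H4K20me3 reads (4.52 times). The domain was picked for its Ring1b density, so the distance of Ring1b from the others describes that choice. Domains of 11.5 kb on chromosome 15 (35237001–35248500), with 1550 reads and 101 times, and of 20.5 kb on chromosome 17 (85515001–85535500), with 2665 reads and 96.9 times, had the same form. A second dense domain of chromosome 17, 11 kb at 85591001–85602000 with 81.6 times, lay within 100 kb of that one. All 10 of the domains with the highest Ring1b density were called over 100% of their length, and their H4K20me3 densities lay between 2.43 and 4.79 times the mean.

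The widest domains outside the regions called in all 4 libraries were more varied. On chromosome 18 (37847001–37895000) a domain of 48 kb joined 12 regions, none wider than 4 kb, with Ring1b at 12.5 times the mean (11.7 to 13.4) and 47.9% of its length called. MCAF1 there was 2.89 times the mean and H4K20me3 2.74 times, each with 3.5 kb of the domain inside called regions of its own. On chromosome 7 (70198001–70244500) a domain of 46.5 kb had 2627 Ring1b reads (42.1 times) over 8 regions and 82.8% of its length called, with MCAF1 at only 1.31 times and H4K20me3 at 2.18 times. On chromosome 13 (40712001–40756500) a domain of 44.5 kb had 3623 Ring1b reads (60.7 times, 58.8 to 62.7), gathered in a pair of dense blocks with a weaker stretch between them. These 3 had Ring1b densities that differed by far more than their counting intervals, while REST lay at 2.46, 2.16 and 2.63 times the mean with intervals that overlapped.

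Among the domains of 15 kb or more, H4K20me3 was lowest in 1 of 19.5 kb on chromosome X (89533501–89553000), at 1.3 times the mean with Ring1b at 21.2 times. Next came a sparsely called domain of 16.5 kb on chromosome 2 (131939001–131955500), at 1.43 times with Ring1b at 3.53 times, and a fully called 1 of 17 kb on chromosome 6 (51097001–51114000), at 1.53 times with Ring1b at 35.2 times. In the domain on chromosome X, REST and MCAF1 were also low, at 1.02 and 0.856 times the mean. Mean Ring1b reads per window were 0.387 times the genome mean on chromosome X and 0.967 times on chromosome 6. The H4K20me3 level of chromosome X is not given here, so 1.3 times the genome mean may not be low for that chromosome. On chromosome 6 dense Ring1b was found with H4K20me3 at 1.53 times the genome mean. The highest REST density outside regions called in all 4 libraries was in a domain of 12.5 kb on chromosome 18 (25811001–25823500), which held 224 REST reads (13.2 times, 11.5 to 15) and 53 Ring1b reads (3.16 times). Its Ring1b calls were 2 narrow regions 10 kb apart, 1 of them at a REST peak of 106 reads in 1 kb. The Ring1b count in that 1-kb step, which did not coincide with a called window, was 11. The highest Ring1b window of the domain held 19 reads.

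**Figure D2:**
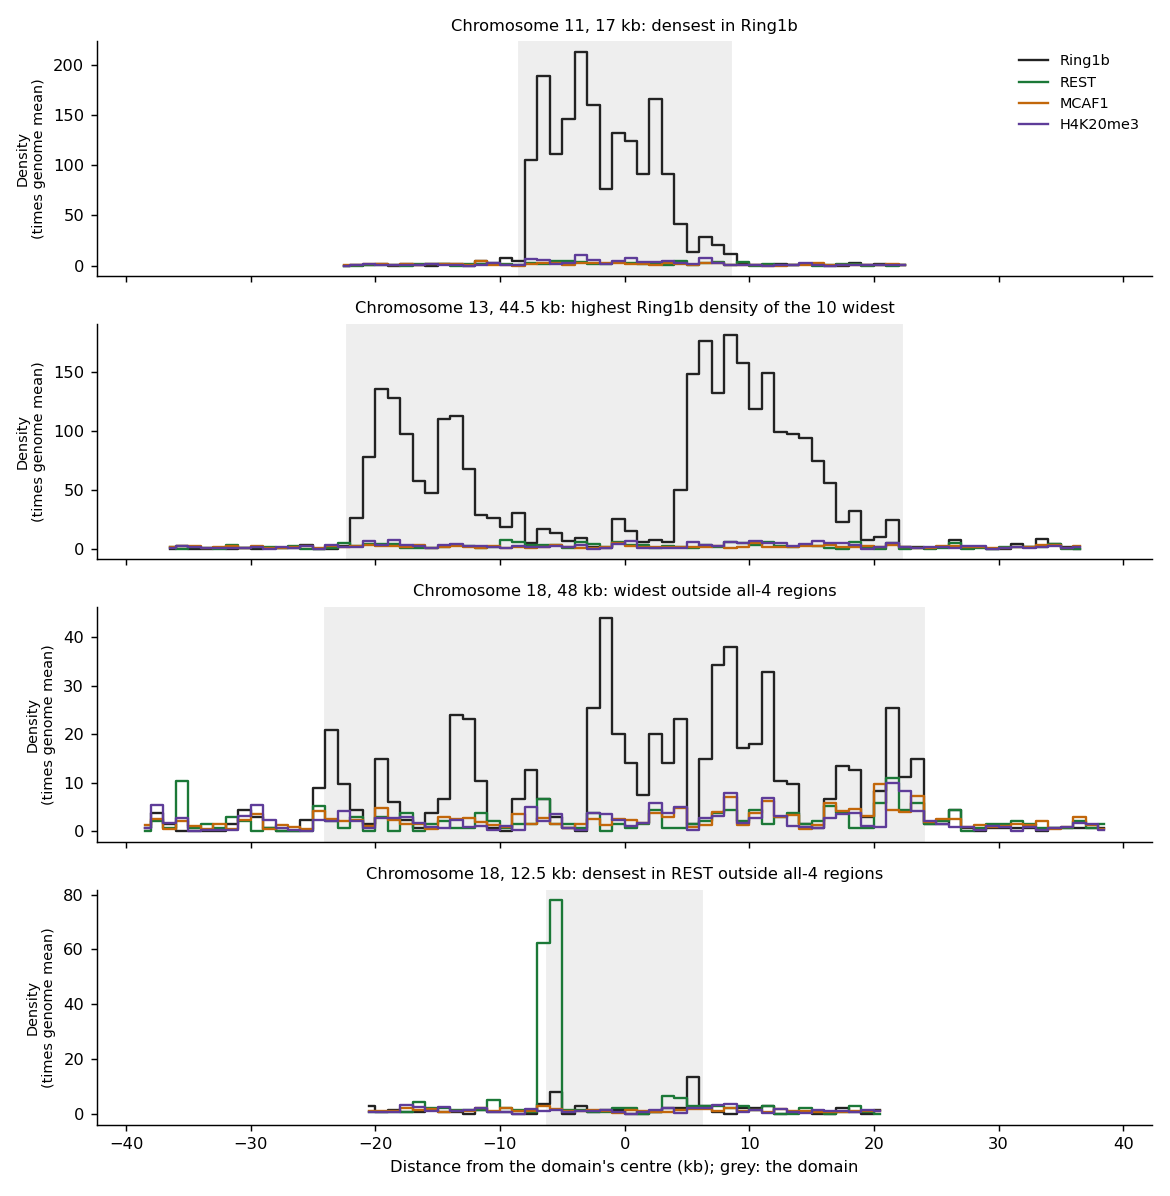
Read density in 1-kb steps (y, times the genome mean, linear scale, a scale of its own in each panel) against distance from the domain's centre (x, kb) for 4 domains, with the domain shaded and 1 line per library. From the top they are the densest domain, the densest of the 10 widest (44.5 kb), the widest outside regions called in all 4 libraries (48 kb) and the domain with the highest REST density outside them (12.5 kb), where Ring1b has small peaks at the ends.

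In the other libraries, which took no part in the choice, read density over the 423 domains was 3.30 times the genome mean for REST (3.27 to 3.34), 2.62 times for MCAF1 (2.60 to 2.63) and 3.86 times for H4K20me3 (3.84 to 3.89). Without the 14 domains called in all 4 libraries the values were 2.97 times, 2.27 times and 3.44 times. In the joined Ring1b domains of 10 kb or less they were higher, at 5.33 times for REST, 3.42 times for MCAF1 and 5.72 times for H4K20me3 (4.94, 3.27 and 5.57 times without regions called in all 4). The broad domains were called over 52.5% of their length and the shorter ones over 90.3%, so these sums compare unlike mixtures of calls and gaps. In the 6 Hox domains REST was 2.44 times the mean, MCAF1 1.89 times and H4K20me3 2.70 times.

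The classes of called share were set by the Ring1b calls, so the spread of Ring1b over them is no measure for the other libraries. Densities of those are given first over whole domains, calls and gaps together. Without the regions called in all 4 libraries REST was 2.69 times the mean (2.63 to 2.75) above 75% and 3.07 times (2.99 to 3.15) at 25% or less. MCAF1 was 1.90 times (1.87 to 1.93) above 75% and 2.41 times (2.37 to 2.45) at 25% or less, so that it was lower where Ring1b was densest. H4K20me3 was 3.45 times (3.41 to 3.50) above 75%, 3.52 times (3.46 to 3.58) in the 50 to 75% class, 3.72 times (3.67 to 3.76) in the 25 to 50% class and 2.89 times (2.84 to 2.94) at 25% or less, so that it was lowest in the lowest class and highest in the next. REST and MCAF1 were also highest in the 25 to 50% class, at 3.23 and 2.61 times. These values mix called Ring1b regions with different amounts of gap. Within the Ring1b regions alone, from the lowest class to the highest, H4K20me3 was 5.68, 6.16, 4.44 and 3.69 times the mean. REST there was 7.03, 5.12, 3.45 and 2.83 times, and MCAF1 4.10, 3.67, 2.32 and 1.98 times.

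The surroundings moved with the class as well. In the 10 kb on each side of the domains, H4K20me3 was 1.26 times the mean for domains called over more than 75% and 2.02 times for those called over at most 25% (without regions called in all 4). REST in the flanks was 1.18 and 1.90 times, and MCAF1 1.24 and 1.87 times. Set against its own flanks, H4K20me3 was 2.75 times as dense (2.68 to 2.82) in the filled domains and 1.43 times (1.40 to 1.47) in the sparse ones, and REST was 2.27 times against 1.61 times. Called Ring1b regions took up 89.5% of the length of the filled domains and 21.7% of the sparse ones. The flanks hold no call, so these ratios depend on the share of gaps. In the Ring1b regions alone H4K20me3 was 3.69 times the mean in the filled domains and 5.68 times in the sparse ones. REST there was 2.83 and 7.03 times the mean, so that against the flanks the order for REST turned round. Over all 423 domains the ratio to the flanks was 2.16 for H4K20me3, 2.0 for REST and 1.59 for MCAF1, and 1.98, 1.82 and 1.40 without the 14. What the flanks of the classes differ in was not tested.

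**Figure D3:**
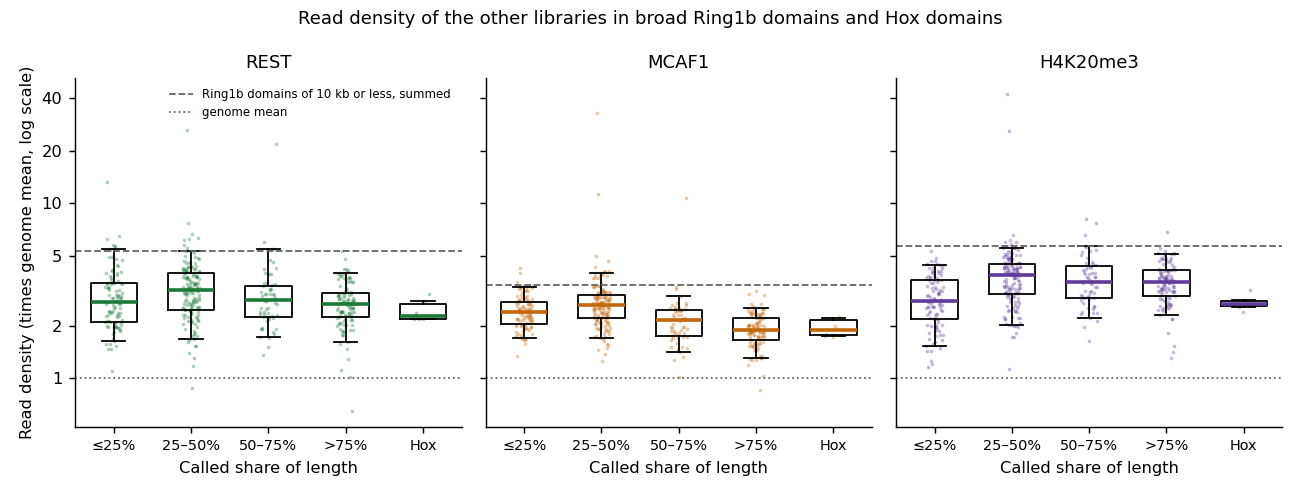
Read density (y, times the genome mean, log scale) of REST, MCAF1 and H4K20me3 in each broad domain by class of called share, with the 6 Hox domains at the right. Boxes are quartiles with the median in colour, whiskers the range from the 5th to the 95th percentile, points single domains, the dotted line the genome mean and the dashed line the summed density of Ring1b domains of 10 kb or less. The class medians stay between 1.89 and 3.89 times the mean in all 3 libraries.

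Many of the domains also held called regions of the other antibodies, in numbers that depended on the settings. An H4K20me3 region overlapped 312 of the 423 (73.8%, 69.3 to 77.9), where 0.396% of all covered windows and 48.7% of the joined Ring1b domains of 10 kb or less had such a call. A REST region overlapped 103 (24.3%, 20.3 to 28.7), against 11.5% of the shorter domains and 0.1% of windows. An MCAF1 region overlapped 78 (18.4%, 14.9 to 22.5), against 12.1% of the shorter domains and 0.0726% of windows. With all libraries thinned to equal reads, 162 domains had an H4K20me3, 95 a REST and 19 an MCAF1 region. At a p threshold of 1e-12, 30 of 282 domains had a REST and 38 an MCAF1 region, and at 1e-06, 374 of 814 had a REST region. The shares of windows and of shorter domains above hold for the main setting, and were not measured at these other settings. The number of broad domains after thinning was not recorded. A longer domain has more room for an overlap, and the order turned round when length was counted: H4K20me3 regions took up 13.3% of the length of the broad domains and 34.2% of the shorter ones. For REST these shares were 3.04% and 6.80%, and for MCAF1 2.87% and 7.43%.

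H4K20me3 was the only other antibody with a region in 192 domains, 53 had REST and H4K20me3 regions, 43 had MCAF1 and H4K20me3 regions, 24 had all of them and 79 had none. An H4K20me3 region was present in 91 of the 109 domains of the highest class (83.5%) and in 58 of the 102 of the lowest (56.9%). Counted by domain, REST ran the other way, with 14 of 109 (12.8%) against 39 of 102 (38.2%). MCAF1 had 8 of 109 (7.34%) against 21 of 102 (20.6%), but was highest in the 25 to 50% class, at 44 of 152 (28.9%). Without domains called in all 4 libraries, REST was in 34 of 97 (35.1%) and MCAF1 in 16 of 97 (16.5%) of the lowest class. The highest class held no such domain. The classes also differed in median width, which was 16.5 kb in the highest and 12 kb in the lowest. Called Ring1b regions took up 1694.5 kb of the highest and 309 kb of the lowest. Per called Ring1b window, without regions called in all 4, H4K20me3 and REST ran the same way. In domains called over more than 50%, H4K20me3 was called in 13.5% of these windows and REST in 0.87%. At 50% or less the shares were 24.6% and 5.43%, and in the shorter domains 32.5% and 4.65%. None of the 6 Hox domains overlapped a REST or an MCAF1 region, and 5 of the 6 overlapped an H4K20me3 region.

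Inside the domains the other antibodies followed the Ring1b calls in place. Of 610 H4K20me3 regions in the domains 588 (96.4%) overlapped a Ring1b region, as did 124 of 145 REST regions (85.5%) and 113 of 119 MCAF1 regions (95%). Ring1b regions covered 52.5% of the length of the domains and by construction form their ends. H4K20me3 density was 5.19 times the genome mean in Ring1b regions and 2.39 times in the gaps between them, a ratio of 2.17 (2.14 to 2.20). The ratio of calls to gaps was 2.0 for REST (1.95 to 2.05) and 1.49 for MCAF1 (1.47 to 1.51), while it was 15.3 for Ring1b, which defined the calls. Leaving out the 14 domains gave 2.12, 1.91 and 1.39. The gaps themselves were slightly above the flanks, by 1.34 times for H4K20me3, 1.31 times for REST and 1.26 times for MCAF1 (1.24, 1.23 and 1.16 times without the 14).

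In 409 domains, without the 14, the highest H4K20me3 window lay within 1 kb of the highest Ring1b window in 185 (45.2%), where 15.5% of windows lie that near on average. For REST this held in 146 (35.7%) and for MCAF1 in 144 (35.2%). The H4K20me3 summit lay in a called Ring1b window in 358 domains (87.5%), where 43.8% of windows are called on average. Nearness to the Ring1b summit was therefore not separated from lying in a call. In the class called over at most 25%, the summit was that near in 47.4% for H4K20me3, 52.6% for REST and 57.7% for MCAF1. There 14.2% of windows lie that near. In the class called over more than 75%, the H4K20me3 summit was that near in 42 of 109 domains (38.5%) and the REST and MCAF1 summits in 24 each (22%), where 16.5% of windows lie that near.

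Profiles from the ends inwards differed between the lowest and the highest class of called share. In 97 domains called over at most 25%, Ring1b was 15.2 times the genome mean in the outermost kilobase and 1.63 times at 3 to 5 kb from the end, which was no higher than the 1.72 times at 10 to 20 kb outside. REST had the same form, with 7.62 times in the outermost kilobase and 1.78 times at 3 to 5 kb, as had H4K20me3, with 5.69 and 1.94 times. The ends of such domains are narrow regions by construction. In the 109 filled domains Ring1b was 3.88 times the mean in the kilobase just outside, 23.3 times in the outermost kilobase inside, 53.4 times in the next and 56.3 times at 3 to 5 kb. H4K20me3 over the same steps was 1.64, 3.37, 4.63 and 3.35 times the mean. It was thus higher at 1 to 2 kb from the end than at 3 to 5 kb, where Ring1b was at its plateau, and the counting intervals of the values (4.48 to 4.79 and 3.26 to 3.45) did not overlap. REST and MCAF1 had smaller differences of this kind, with 3.08 and 2.58 times for REST and 2.18 and 1.82 times for MCAF1.

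**Figure D4:**
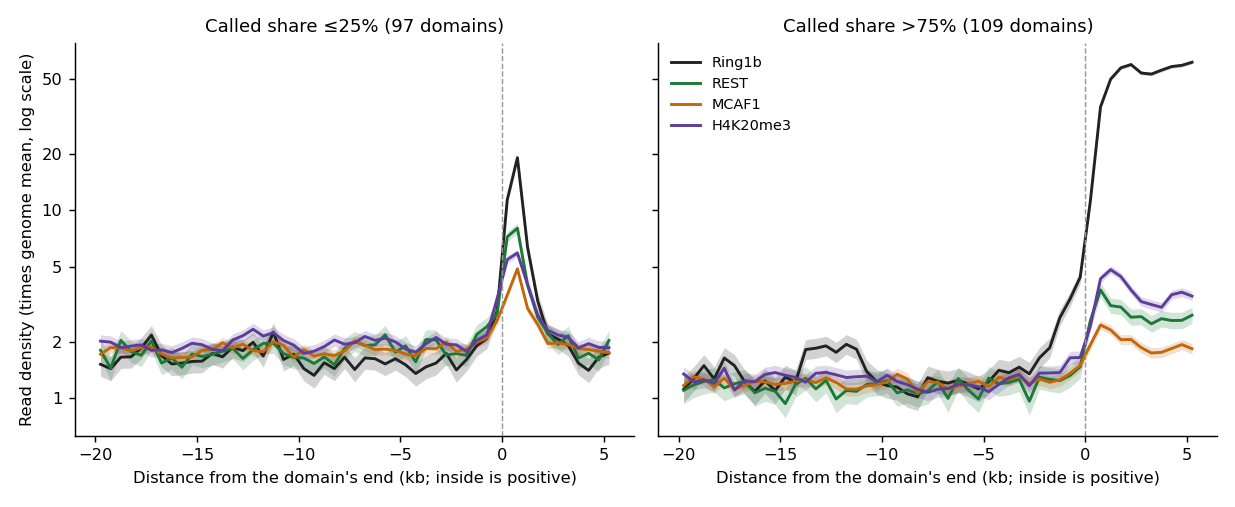
Read density of the 4 libraries (y, times the genome mean, log scale) by distance from the domain's end (x, kb, positive inside, each end taken separately) for 97 broad domains called over at most 25% of their length and 109 called over more than 75%, without domains in regions called in all 4 libraries; bands are counting intervals. At the left all libraries peak in the outermost kilobase and return to the level outside, and at the right Ring1b keeps a plateau above 50 times the mean while H4K20me3 peaks just inside the end and then declines.

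Ring1b windows of broad domains were compared with called Ring1b windows of the domains of 10 kb or less outside the Hox intervals, at the same Ring1b read number, in 7 bins from 10 reads upwards. Standardised over the bins, H4K20me3 in windows of broad domains was 0.620 times that of other Ring1b windows (0.614 to 0.625), from 3037 and 11010 windows. Without regions called in all 4 libraries it was 0.641 times (0.635 to 0.647), and REST and MCAF1 were 0.782 and 0.803 times. With those regions REST was 0.506 times and MCAF1 0.696 times, and the bin of 120 or more Ring1b reads differed most, where REST was 4.0 times the mean in broad domains and 26.7 times in the others (3.56 and 4.07 times without those regions).

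The lower H4K20me3 was present in each bin of Ring1b reads, with and without the regions called in all 4 libraries. Without them, at 60 to 80 Ring1b reads, H4K20me3 was 4.48 times the mean in 330 windows of broad domains and 8.22 times in 465 others (ratio 0.545, 0.527 to 0.563), and at 10 to 20 reads it was 4.20 and 5.32 times (ratio 0.791). H4K20me3 was called in 16.4% of the windows of broad domains (15.1 to 17.8) and in 32.5% of the others (31.6 to 33.4). With those regions kept, H4K20me3 at 60 to 80 reads was 5.57 times the mean in broad domains and 8.28 times in the others (ratio 0.672), and the called shares over all bins were 18.0% and 33.3%. The H4K20me3 background used for calls (the larger of genome and 1-Mb mean) was 1.37 times the mean for the windows of broad domains with 60 to 80 reads and 1.47 times for the others, without those regions.

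The ratio differed by called share, again without regions called in all 4 libraries. In windows of domains called over more than 50% of their length, H4K20me3 was 0.539 times that of the other windows (0.533 to 0.545), REST 0.666 times and MCAF1 0.682 times. In domains called over 50% or less the ratios were 0.978 (0.963 to 0.993), 1.06 and 1.11. The H4K20me3 background moved with the called share too. At 10 to 20 Ring1b reads it was 1.15 times the mean in the domains called over more than 50%, 1.52 times in those called over 50% or less and 1.37 times in the other windows, and at 20 to 30 reads it was 1.33, 1.80 and 1.57 times. The part of this background in the ratios was not tested. A wide region also holds windows away from its summit, so the comparison was repeated with only the highest window of each Ring1b region. There H4K20me3 was 0.835 times (0.824 to 0.846) in 1084 broad domain windows against 9186 others, REST 0.962 times and MCAF1 0.964 times. At summits of 80 to 120 Ring1b reads H4K20me3 was 7.26 times the mean in broad domains and 10.7 times elsewhere (ratio 0.677, 0.645 to 0.710).

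**Figure D5:**
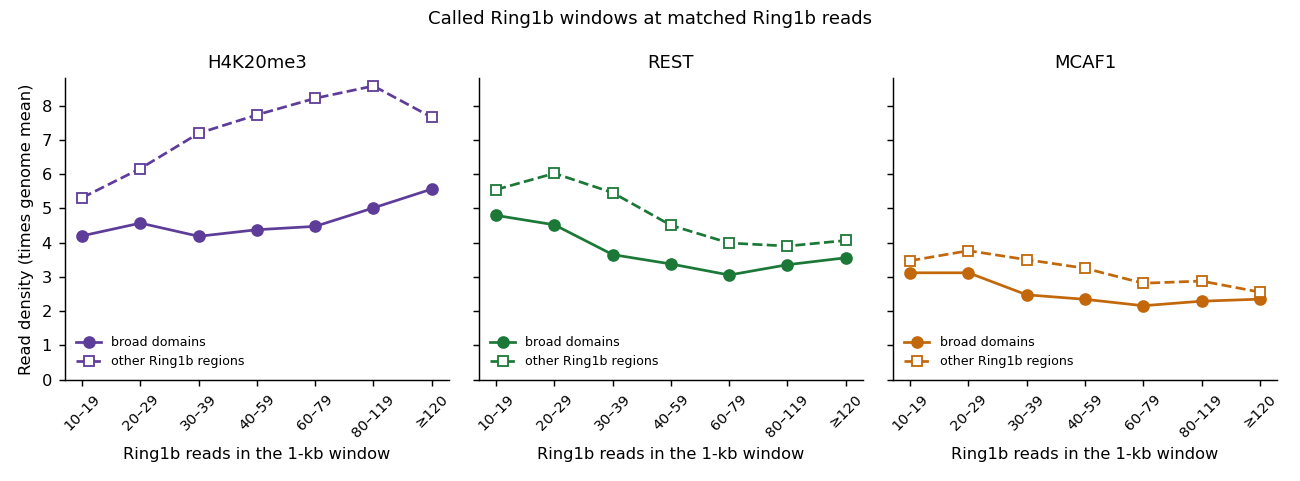
Read density of H4K20me3, REST and MCAF1 (y, times the genome mean) in called Ring1b windows of broad domains (filled circles) and of other Ring1b regions (open squares) by the number of Ring1b reads in the window (x), without regions called in all 4 libraries; no interval is drawn. The broad domains lie below the others at each Ring1b read number in all 3 libraries, and the distance is greatest for H4K20me3 between 30 and 120 reads.

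Across the 423 domains, Ring1b density had a Spearman correlation of 0.31 with H4K20me3, −0.01 with REST and −0.32 with MCAF1, while REST and MCAF1 correlated at 0.65 with each other, REST and H4K20me3 at 0.59, and MCAF1 and H4K20me3 at 0.54. Within the 109 filled domains the values for Ring1b were 0.38, 0.35 and 0.27. These describe 1 library per antibody, and the domains of 1 genome share its base composition and mappability. Inside the classes of called share, from the lowest to the highest and without the 14 domains, the value of Ring1b with MCAF1 was 0.49, −0.09, −0.07 and 0.27. With H4K20me3 it was 0.61, 0.29, 0.005 and 0.38, and with REST 0.39, 0.06, −0.07 and 0.35.

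Reads with 2 reported locations took no part in the choice of domains. Their 9251 Ring1b alignments in the domains came to 8.29 times the mean (8.12 to 8.46) and to 5.47 times the density in the flanks. Without the 14 domains called in all 4 libraries they were at 6.66 times the mean and 5.23 times the flanks. In the 109 filled domains they were at 13.1 times the mean and 11.9 times the flanks. Reads repeated at a position and strand made up 8.58% of the Ring1b reads in the domains (8.47 to 8.69) and 6.31% of the whole library.

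With the reads of the other 3 libraries in the same window as the background in place of the Ring1b surroundings, 271 of the 423 domains (64.1%) kept a Ring1b region, where 24.7% of the shorter domains did. All 109 filled domains kept a region and 106 still overlapped a domain over 10 kb. Of the 102 domains of the lowest class 19 kept a region and 1 still overlapped a domain over 10 kb. All 6 Hox domains kept a domain over 10 kb. None of the 3 domains that stood apart at the start, on chromosomes 11, 9 and X, did so. These calls again used the Ring1b reads that chose the domains and set the classes, so the counts are a description. A broad domain also has more windows in which a region can be kept than a shorter one.

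The domains lay on every chromosome other than Y. Chromosome 2 held 42, chromosome 11 held 39 (0.339 per Mb of covered sequence, 0.241 to 0.464), chromosome 19 held 17 (0.306 per Mb) and chromosome X held 4 (0.0319 per Mb, 0.00870 to 0.0818). Mean Ring1b reads per window were 1.37 times the genome mean on chromosome 11 and 0.387 times on chromosome X, and the part of this in the counts was not tested. Another broad domain lay within 100 kb of 59 of the 423 (13.9%), and the median distance to the nearest was 1253.5 kb. These neighbours formed 28 runs, of which the longest was 4 domains in 169.5 kb of chromosome 8 (74454001–74623500), called over 22.5% to 36.2% of their length, and the next 3 domains in 143.5 kb of chromosome 18 (37805501–37949000) around the 48 kb domain described above.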

How the data were processed

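The deposited files hold 1 signed read position per alignment, with the sign giving the strand, and no counts per feature or normalised values; there is 1 file per antibody. Per the file headers, reads were aligned with Bowtie to mm8 with up to 2 locations reported per read (-k 2 -m 2), 2 seed mismatches, a quality limit of 70 (-e) and a seed of 26 bases for Ring1b and REST and 36 bases for MCAF1 and H4K20me3. No version of Bowtie is given in the sources used here. The labels' protocols state that chromatin of 500 bp mean length was amplified over 18 cycles and sized on a gel from 150 bp up to 300 bp, or up to 350 bp for REST and H4K20me3.

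From these, reads with 1 location were reduced to 1 per position and strand, moved 75 bp towards their 3′ end and counted in 1-kb windows every 500 bp (Python 3.11.15, numpy 2.4.6, scipy 1.17.1). Background was the larger of the genome mean and the mean over the surrounding 1 Mb, over windows with any read. The calling was tested on simulated reads. Intervals are exact Poisson, conditional binomial or Clopper-Pearson (95%) and cover counting error only, as reads carry no molecular identifiers. No p-value was made between antibodies, since each had 1 library. Flanks are the 10 kb on each side, which by the joining distance hold no other Ring1b call. The matched ratio divides the reads in broad domain windows by those expected from the other windows' mean in each bin of Ring1b reads, and its interval covers the broad domain reads alone.

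The domains, lists and comparisons were chosen with earlier results of these data known. Named domains are the 10 widest, the 10 densest in Ring1b, the 3 densest in each other library, the 3 lowest in H4K20me3 at 15 kb or more and those at the width limit; the runs of neighbouring domains were chosen after their values were seen. No gene or sequence is given because the annotation at hand is on another assembly than mm8. Alternatives were other p thresholds, joining distances, read shifts, backgrounds, width limits, repeated and 2-location reads, overlap sizes, thinned libraries and leaving out regions called in all 4 libraries.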

Additional observations from a re-analysis of the deposited data

Results flagged for a closer look

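Alignments of reads with 2 locations lay outside the measurements compared above for REST, MCAF1 and H4K20me3. The domains held 3481 REST alignments of this kind, 2.61 times the library's mean (2.52 to 2.70), 5724 MCAF1 alignments, 2.60 times (2.54 to 2.67), and 5387 H4K20me3 alignments, 3.22 times (3.13 to 3.30). The 14 domains that overlap regions called in all 4 libraries held 1903, 4071 and 3552 of them. In the other 409 domains REST was 1.24 times the mean and 1.20 times the flanks, MCAF1 0.786 and 0.964 times, and H4K20me3 1.15 and 1.3 times, against 6.66 and 5.23 times for Ring1b.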

How the results depend on the processing

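In 15 results over the alternatives, 55 values kept within the counting interval (or within 1.5 times, for counts) and 106 moved. No ratio crossed 1 in these alternatives: the matched H4K20me3 ratio of broad domain windows to other Ring1b windows lay between 0.448 and 0.835, and the ratios to flanks and of calls to gaps stayed above 1 in each alternative. With the other 3 libraries as background, H4K20me3, REST and MCAF1 reads took part in the Ring1b calls, so the ratios at that setting are no separate check. Domains called over 50% or less of their length were not among the alternatives. For them, without regions called in all 4 libraries, the matched ratio was 0.978, with values from 0.878 to 1.03 over the bins of Ring1b reads. The cause of the changes was not tested. The shares of windows and of shorter domains with a region were measured at the main setting only, so the overlap counts below have none beside them.

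With a p threshold of 1e-12 the called share was 59.96%, 2-location Ring1b density 10.6 times the mean, MCAF1 density 2.67 and H4K20me3 density 4.13 times, 30 domains had a REST region and 38 an MCAF1 region, the matched ratio was 0.589, the ratios to flanks 2.44 for H4K20me3, 2.14 for REST and 1.71 for MCAF1, and H4K20me3 calls over gaps 2.07. At 1e-06 there were 814 domains with a called share of 43.3%, 2-location Ring1b was 5.47 times the mean, REST 3.21, MCAF1 2.55 and H4K20me3 3.53 times, 374 domains had a REST, 132 an MCAF1 and 546 an H4K20me3 region, the matched ratio was 0.697, the ratios to flanks 1.93 (H4K20me3), 1.90 (REST) and 1.49 (MCAF1), and calls over gaps 2.27.

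Joining within 5 kb left 188 domains with a median width of 15.5 kb and a called share of 79.5%. There 2-location Ring1b was 13.2 times the mean, MCAF1 2.53 and H4K20me3 4.06 times, 31 domains had a REST, 16 an MCAF1 and 151 an H4K20me3 region, the matched ratio was 0.489, the ratios to flanks 2.32, 2.15 and 1.61 (H4K20me3, REST, MCAF1) and calls over gaps 1.87. A width over 15 kb left 180 domains with a median of 19.5 kb and a called share of 59%. Their 2-location Ring1b was 11 times the mean, REST 3.42, MCAF1 2.75 and H4K20me3 4.10 times, 51 had a REST, 35 an MCAF1 and 147 an H4K20me3 region, the matched ratio was 0.655, the ratios to flanks 2.40, 2.20 and 1.74, and calls over gaps 2.0.

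With all reads kept the called share was 50.8%, 2-location Ring1b 7.74 times the mean, REST 3.49, MCAF1 2.72 and H4K20me3 3.9 times, 160 domains had a REST region, the matched ratio was 0.566, the ratios to flanks 2.20, 2.12 and 1.64, and calls over gaps 2.29. Adding reads with 2 locations gave 2-location Ring1b 12.3 times the mean, REST 3.43, MCAF1 2.78 and H4K20me3 4.11 times, a matched ratio of 0.605, ratios to flanks of 2.29, 2.10 and 1.67, and calls over gaps of 2.22. Moving reads by 100 bp gave calls over gaps of 2.13, and a move of 50 bp changed none of the results beyond counting error.

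With the other 3 libraries as background there were 172 domains, with a median width of 16.5 kb and a called share of 78.9%. Their 2-location Ring1b was 11.6 times the mean, REST 2.61, MCAF1 1.90 and H4K20me3 3.32 times, the matched ratio 0.589, the ratios to flanks 2.34, 1.90 and 1.39, and calls over gaps 1.98. Overlaps with REST, MCAF1 and H4K20me3 regions were 5, 0 and 0. Each library's regions were then called against the rest. A place enriched in several libraries was thus called only where 1 library had at least 5 times the scaled reads of the others. The Ring1b calls were limited in the same way by REST, MCAF1 and H4K20me3 reads. Densities of these libraries and the ratios at this setting are therefore not separate from the choice of windows. Thinning all libraries to equal reads left 19 domains with an MCAF1 and 162 with an H4K20me3 region.

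Leaving out domains in regions called in all 4 libraries gave REST 2.97, MCAF1 2.27 and H4K20me3 3.44 times the mean, and medians over all domains were 2.83, 2.28 and 3.45 times. The next alternatives were chosen after seeing the data. Leaving out those domains in the remaining results gave 2-location Ring1b 6.66 times the mean, a matched ratio of 0.641, ratios to flanks of 1.98, 1.82 and 1.40, and calls over gaps of 2.12. Without those domains the matched ratio was 0.835 with only the highest window of each region. With them kept it was 0.448 in domains called over more than 50%, where it was 0.539 without them.

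Depth limits the calls: 14 reads were needed in a Ring1b or REST window, so weaker stretches between calls could not be called, and a gap does not show that Ring1b was absent. No paired analysis was possible because each antibody had 1 library.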
